A study of Mus musculus with 6 samples.

Results

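The genes described are 8 of the 23291 genes listed for mouse liver: Serpina6 and Hsd11b1, which set how much corticosteroid reaches its receptor, and Fkbp5, Tsc22d3, Sgk1, Lcn2, Zbtb16 and Pik3r1, which are known as glucocorticoid response genes. They were matched by symbol and were chosen by their levels in these same dabigatran and diet libraries, together with their known roles. Their group differences are therefore given as a description with no test. All 8 were listed once and all 8 passed the filter on low values, which asked for 1 FPKM or more in 3 or more of 5 distinct libraries. FPKM relates the sequenced fragments of a gene to its length and to the depth of its library.

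RNA sequencing was done on snap frozen liver of C57BL/6 mice. Animals of the dabigatran group ate a high fat (Western) diet for 3 months to which dabigatran etexilate was added at 10 mg per gram, and animals of the diet group ate that diet without the drug for 3 months. Dabigatran etexilate is an oral prodrug of a direct thrombin inhibitor, so both groups carry the effect of the diet and no mice on ordinary chow are compared here. The tables labelled dabigatran replicates 0 and 1 were identical for every gene and were counted as 1 library, called dabigatran replicate 1. The comparison thus holds 2 dabigatran libraries (replicates 1 and 2) and 3 diet libraries (replicates 0, 1 and 2). Its p-values set a group difference against the spread between these libraries, which the fit draws partly from other genes. The sources used here give no age, sex or hour of collection.

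Corticosterone, the main glucocorticoid of mice, travels in blood bound to corticosteroid-binding globulin, a serpin made by hepatocytes. Inside the hepatocyte, 11-beta-hydroxysteroid dehydrogenase 1 regenerates active corticosterone from its inactive 11-keto form. The hormone binds the glucocorticoid receptor, which waits in the cytoplasm with HSP90 and its co-chaperones, then enters the nucleus and binds DNA elements made of a pair of short inverted motifs. In liver the receptor is known for inducing genes of gluconeogenesis and amino acid breakdown and for acting with cytokines on acute phase genes.

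Promoter sequences are shown for 3 of the response genes because they differ in whether they hold the letters of such an element near the start. Windows run from 250 bases before to 50 bases after a gene start in RefSeq (GRCm38.p6), and 6 of the 8 genes matched, with 14 windows in all. Serpina6 and Zbtb16 are named only. Capitals mark the 6-letter motifs AGAACA and TGTTCT, which are reverse complements of each other, so both strands are covered by searching both. Each sequence is written 5′ to 3′ on the strand of its gene: Sgk1 at chr10:21993640-21993939 on the plus strand, Tsc22d3 at chrX:140600473-140600772 on the minus strand and Fkbp5 at chr17:28486100-28486399 on the minus strand.
Sgk1: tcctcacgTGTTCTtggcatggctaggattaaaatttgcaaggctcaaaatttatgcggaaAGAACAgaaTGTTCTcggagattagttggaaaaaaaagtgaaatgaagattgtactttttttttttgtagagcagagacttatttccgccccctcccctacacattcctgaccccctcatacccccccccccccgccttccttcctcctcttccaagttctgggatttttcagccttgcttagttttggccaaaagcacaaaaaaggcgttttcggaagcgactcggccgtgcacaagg
Tsc22d3: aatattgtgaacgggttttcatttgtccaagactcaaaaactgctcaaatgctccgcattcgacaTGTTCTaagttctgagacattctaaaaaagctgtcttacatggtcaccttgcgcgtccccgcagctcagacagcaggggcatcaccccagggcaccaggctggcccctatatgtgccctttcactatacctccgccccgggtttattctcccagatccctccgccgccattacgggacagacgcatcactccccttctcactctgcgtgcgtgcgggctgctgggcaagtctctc
Fkbp5: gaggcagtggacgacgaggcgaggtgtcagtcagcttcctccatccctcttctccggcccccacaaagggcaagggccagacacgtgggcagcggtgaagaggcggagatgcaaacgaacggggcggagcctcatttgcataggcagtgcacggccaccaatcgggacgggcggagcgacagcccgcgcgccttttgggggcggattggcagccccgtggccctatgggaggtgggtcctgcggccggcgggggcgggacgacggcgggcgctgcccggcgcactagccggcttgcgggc

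The Sgk1 window held motifs starting at -242, -189 and -180 from the gene start. Those at -189 and -180 are AGAACA and TGTTCT in that order with 3 bases between them, a match to all 12 letters that 3 of 32851 RefSeq windows (0.00913%) contained. The Tsc22d3 window held 1 motif at -185, and 19.0% of all windows held at least 1. The windows shown were picked from 6 of Sgk1 and 3 of Tsc22d3 because they held the most motifs, so the share per window is no measure for these genes. Of the other 5 Sgk1 windows, 2 held 1 motif each, at -195 and -13, and the other 2 Tsc22d3 windows held none. The only Fkbp5 window held none, and its best spaced pair matched 6 of the 12 letters. Among the other windows, 1 of Sgk1 matched 10 of the 12 letters, a score reached by 1.84% of all windows, and that of Lcn2 matched 9, reached by 14.5%. These matches describe the letters in short windows, and elements farther from a start were not searched.

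Before the 8 genes are taken in turn, a few values describe the libraries. A library had 10006 to 10399 genes at 1 FPKM or more, and depth relative to diet replicate 0, read from the steps of low values, was 0.857 and 0.772 in dabigatran replicates 1 and 2 and 1, 0.761 and 0.967 in diet replicates 0, 1 and 2. Hepatocyte markers summed to 39240 and 55008 FPKM in dabigatran libraries and to 40454 to 45510 in diet libraries. Of 10247 genes tested with limma on log2(FPKM + 0.5), 13 (0.127%) were higher and 31 (0.303%) lower with dabigatran at an adjusted p under 0.05. At an unadjusted p under 0.05 the counts were 704 higher (6.87%) and 936 lower (9.13%), and the 2 groups did not overlap in 1759 higher (17.2%) and 1766 lower genes (17.2%). Of the 8 chosen genes, 0 passed the adjusted threshold as higher and 1, Serpina6, as lower. That call is no test of Serpina6, which was chosen by this contrast. It was lost in most of the 13 alternative fits. Among them were those with no filter on low values and without diet replicate 2, where 0 genes were called lower. Fkbp5 and Tsc22d3 lay above all diet libraries in both dabigatran libraries, Serpina6 and Hsd11b1 lay below them, and the other 4 overlapped. Since this contrast chose the genes, nothing is read from these counts.

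**Figure D1:**
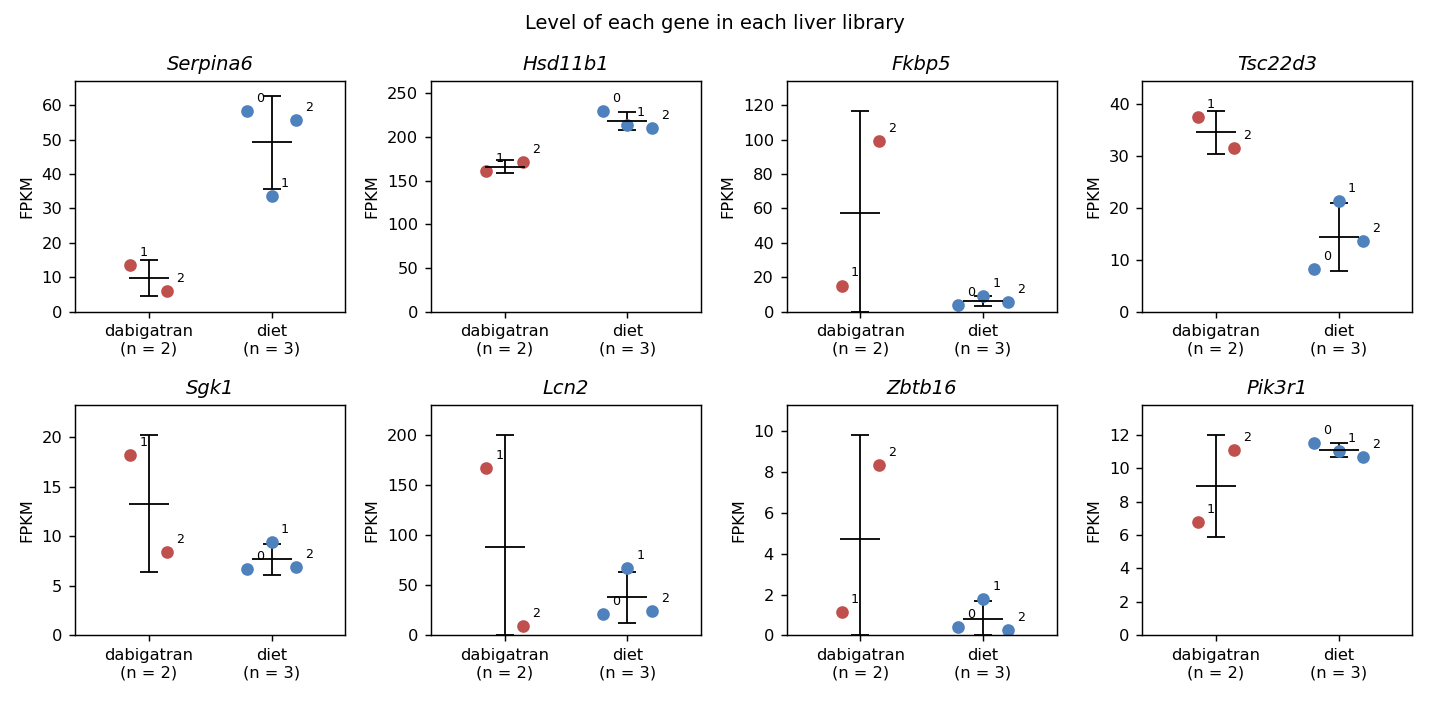
Levels in FPKM of the 8 genes, with a panel for each gene, dabigatran libraries on the left (n = 2) and diet libraries on the right (n = 3). Points are libraries labelled with their replicate number, the long bar is the group mean and the whiskers are the SD, cut at 0. Serpina6 and Hsd11b1 lie lower in both dabigatran libraries, Fkbp5 and Tsc22d3 lie higher, and the remaining genes overlap between groups.

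Serpina6 (chr12:103646630-103657212, minus strand), which encodes corticosteroid-binding globulin, had 13.6 and 6.11 FPKM in dabigatran replicates 1 and 2, against 58.2, 33.5 and 55.7 FPKM in diet replicates 0, 1 and 2. The highest dabigatran library lay 2.47 times below the lowest diet library, which was diet replicate 1. Means were 9.85 ± 5.28 FPKM with dabigatran (SD, n = 2) and 49.1 ± 13.6 on the diet alone (SD, n = 3). On the log2(FPKM + 0.5) scale, which understates changes of low genes, the difference was -2.32 ± 0.36 (SE). The smallest whole numbers of fragments in the ratio of these values were 37 and 15 in dabigatran libraries and 185, 81 and 171 in diet libraries. In bulk tissue, fewer cells of a type and less RNA per cell cannot be told apart.

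Hsd11b1 (chr1:193221634-193264075, minus strand), which encodes 11-beta-hydroxysteroid dehydrogenase 1, was the most abundant of the 8 genes per length of gene in diet livers. It had 160 and 171 FPKM in dabigatran replicates 1 and 2, against 229, 213 and 211 FPKM in diet replicates 0, 1 and 2. Both groups were narrow, with the highest library 1.07 times the lowest with dabigatran and 1.09 times on the diet, and the groups did not overlap. The log2 difference was -0.39 ± 0.16 (SE), with means of 166 ± 7.51 FPKM with dabigatran (SD, n = 2) and 218 ± 10.2 FPKM on the diet (SD, n = 3).

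The other genes of steroid supply and breakdown, from a list written with earlier results of these data known for some of its genes, lay on both sides of the diet level. Of its 13 genes, 10 were tested, 0 were called higher and 1 lower, and the median log2 difference was -0.14, beside 0.02 over all tested genes. That median ranged from -0.33 to 0.11 over 13 alternatives and was above 0 without dabigatran replicate 2. The called gene was Akr1c6, a hydroxysteroid dehydrogenase of the aldo-keto reductase family, which fell to 263 ± 49.7 FPKM with dabigatran (SD, n = 2), against 619 ± 49.3 on the diet (SD, n = 3), a difference of -1.24 ± 0.19 on the log2 scale (SE, limma adjusted p = 0.0464). The call of Akr1c6 was lost without diet replicate 0, without diet replicate 2 and without dabigatran replicate 2, while its log2 difference lay between -1.43 and -1.05 in all 13 alternatives. A fit without a dabigatran library has 1 library in that group, so the spread comes from the diet libraries and the lone library is assumed to vary like them.

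Several other enzymes of this group had separate levels without passing the threshold. Por, which passes electrons to microsomal cytochromes P450, had 145 and 293 FPKM with dabigatran, against 71.4, 74.9 and 70.8 FPKM in diet replicates 0, 1 and 2 (log2 difference 1.51, adjusted p = 0.0674). Its log2 difference was 2.01 without dabigatran replicate 1, where it passed with a lone dabigatran library, and 1.00 without dabigatran replicate 2, where it did not. Akr1c14, another hydroxysteroid dehydrogenase, averaged 54.9 ± 12.5 FPKM with dabigatran and 83.3 ± 5.29 on the diet. Srd5a1, a steroid 5-alpha-reductase, averaged 21.7 ± 7.74 FPKM with dabigatran and 35.4 ± 2.08 on the diet, and 15.1% of its 50-base windows also occur in another gene, so its level is less certain.

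The partner and counterpart enzymes of Hsd11b1 gave smaller differences. H6pd, which supplies NADPH to that enzyme inside the endoplasmic reticulum, averaged 94.0 ± 0.131 FPKM with dabigatran (SD, n = 2) and 79.7 ± 8.24 on the diet (SD, n = 3), with a log2 difference of 0.24 and an adjusted p of 0.525. Hsd11b2, which inactivates corticosterone in kidney and colon, was listed at 0 in every library. Akr1d1, a 5-beta-reductase that clears steroids and makes bile acids, had 44.5 and 37.5 FPKM with dabigatran, against 57.8, 21.8 and 50.6 FPKM on the diet, so its groups overlapped.

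The receptors themselves overlapped between groups. Nr3c1, the glucocorticoid receptor gene, had 15.4 and 11.1 FPKM in dabigatran replicates 1 and 2, against 17.3, 15.7 and 11.7 FPKM in diet replicates 0, 1 and 2 (log2 difference -0.16 ± 0.24, adjusted p = 0.781). Nr3c2, the mineralocorticoid receptor gene, had 3.08 and 1.18 FPKM with dabigatran, against 2.03, 2.14 and 2.31 FPKM on the diet (adjusted p = 0.909). For both genes the sign of the difference turned without dabigatran replicate 2. Of 20 genes for receptor chaperones and coregulators, all tested, 0 were called in either direction. At an unadjusted p under 0.05, 1 was higher and 1 lower, beside 6.87% and 9.13% of all tested genes. The list median was 0.05, with a range of -0.11 to 0.08 over 13 alternatives.

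The genes named next were among those with the lowest p, and their groups did not overlap. Dnaja1, a co-chaperone of HSP70, averaged 33.4 ± 1.42 FPKM with dabigatran and 48.5 ± 4.63 on the diet, and Fkbp4, the HSP90 co-chaperone that helps carry the receptor to the nucleus, averaged 25.1 ± 4.10 with dabigatran and 34.6 ± 5.26 on the diet. The coactivator Ncoa2 averaged 8.17 ± 1.38 FPKM with dabigatran and 5.88 ± 0.364 on the diet. The adjusted p-values of these 3 genes lay between 0.205 and 0.375.

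Fkbp5 (chr17:28399094-28517527, minus strand) encodes FKBP51, an HSP90 co-chaperone that lowers the hormone affinity of the receptor and is itself induced by it. It had 15.2 and 99.1 FPKM in dabigatran replicates 1 and 2, against 3.71, 9.27 and 5.57 FPKM in diet replicates 0, 1 and 2. Both dabigatran libraries lay above every diet library, but the lower of them was 1.64 times the highest diet library, while the 2 dabigatran libraries differed 6.52-fold from each other. The log2 difference was 2.65 ± 0.69 (SE), and it was 1.32 without dabigatran replicate 2 and 3.98 without dabigatran replicate 1. The fragments behind these values were in the ratio of 109 and 640 in dabigatran libraries to 31, 59 and 45 in diet libraries.

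Tsc22d3 (chrX:140539528-140600659, minus strand) encodes GILZ, a leucine zipper protein that carries part of the anti-inflammatory action of glucocorticoids. Its levels were 37.3 and 31.5 FPKM in dabigatran replicates 1 and 2, against 8.19, 21.3 and 13.7 FPKM in diet replicates 0, 1 and 2. The groups did not overlap, and the libraries spanned a 1.18-fold range with dabigatran and a 2.60-fold range on the diet. The log2 difference was 1.33 ± 0.35 (SE) and ranged from 0.99 to 1.65 over 13 alternatives.

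Sgk1 (chr10:21882184-21999903, plus strand) encodes a kinase that acts on ion channels and transporters. Of its 6 promoter windows, 1 held the full pair of motifs, and no other of the 14 windows searched did. Which start was used in these livers was not tested. Sgk1 had 18.2 and 8.41 FPKM in dabigatran replicates 1 and 2, against 6.67, 9.47 and 6.90 FPKM in diet replicates 0, 1 and 2. Dabigatran replicate 1 was the highest library, while dabigatran replicate 2 lay below diet replicate 1. The log2 difference of 0.68 ± 0.33 (SE) was 0.14 without dabigatran replicate 1.

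Zbtb16 (chr9:48654297-48836222, minus strand) encodes PLZF, a zinc finger transcriptional repressor. It was the least abundant of the 8 genes, with 1.13 and 8.32 FPKM in dabigatran replicates 1 and 2, against 0.402, 1.79 and 0.249 FPKM in diet replicates 0, 1 and 2. Dabigatran replicate 2 stood alone, and dabigatran replicate 1 lay between the diet libraries. The fragments were in the ratio of 12 and 80 in dabigatran libraries to 5, 17 and 3 in diet libraries, so several levels rest on few fragments. The log2 difference was 1.71 ± 0.75 (SE) and 0.49 without dabigatran replicate 2.

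Fkbp5 and Zbtb16 thus had their highest level in dabigatran replicate 2, with a ratio of dabigatran replicate 2 to 1 of 6.52 and 7.40. Tsc22d3 and Sgk1 had theirs in dabigatran replicate 1. Of the diet libraries, replicate 1 was the highest for Fkbp5, Tsc22d3, Sgk1, Lcn2 and Zbtb16 and the lowest for Serpina6. It was the highest diet library in 38.4% of all tested genes.

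**Figure D2:**
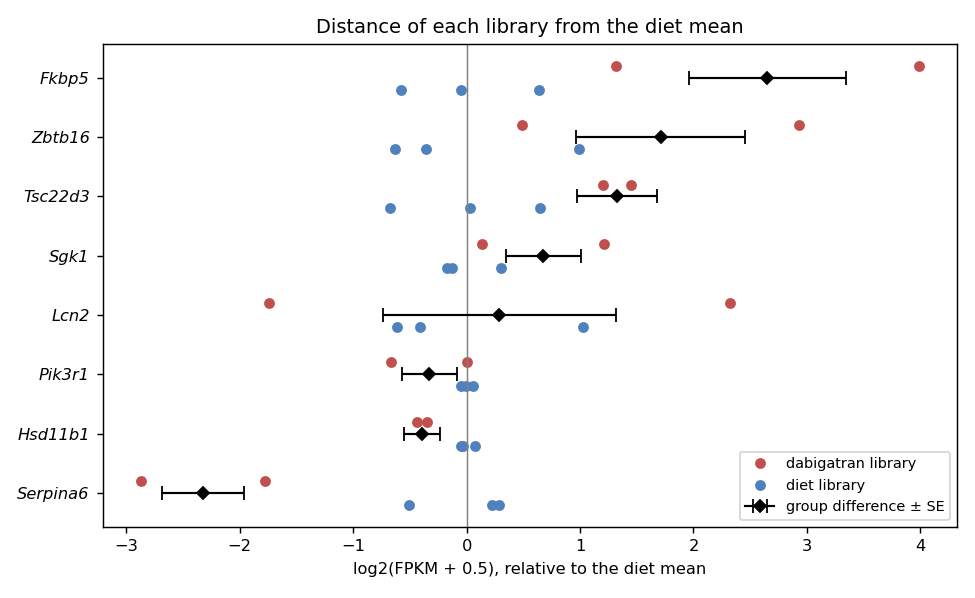
Distance of each library from the diet mean on the log2(FPKM + 0.5) scale, with a row for each of the 8 genes. Upper points in a row are dabigatran libraries (n = 2), lower points are diet libraries (n = 3), and the diamond with its bar is the fitted difference of dabigatran from diet with its SE. Serpina6 is the gene farthest to the left at -2.32 and Fkbp5 the farthest to the right at 2.65, and the 2 Lcn2 points of the dabigatran group fall on opposite sides of all diet points.

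Pik3r1 (chr13:101680563-101768217, minus strand) encodes the p85-alpha regulatory subunit of phosphoinositide 3-kinase, which glucocorticoids induce in muscle and fat. It had 6.78 and 11.1 FPKM in dabigatran replicates 1 and 2, against 11.5, 11.03 and 10.6 FPKM in diet replicates 0, 1 and 2. Only dabigatran replicate 1 was apart, below the others. The log2 difference was -0.33 ± 0.24 (SE), and without dabigatran replicate 1 it was 0.01. Of 16 genes for insulin signalling through this kinase, 14 were tested and 0 were called by limma, with 0 in either direction at an unadjusted p under 0.05 and a median of 0.15, which ranged from 0.04 to 0.20 over 13 alternatives. Those with the lowest p were Foxo3 (log2 difference 0.80), Grb14 (0.41), Pik3r2 (0.36) and Akt1 (0.26), with adjusted p-values from 0.429 to 0.546.

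The list of other genes known to be induced by glucocorticoids, mainly in liver, stood higher in dabigatran livers for most of its genes. It was written with earlier results of these data known for some genes, so its direction is not independent evidence. Of 28 listed genes, 26 were tested, 2 were called higher and 0 lower. At an unadjusted p under 0.05, 17 were higher and 0 lower, beside 6.87% and 9.13% of all tested genes. The groups did not overlap in 17 of the 26 (65.4%), all higher with dabigatran, beside 17.2% over all tested genes. The median log2 difference was 0.96, and 0.77 to 1.17 over 13 alternatives.

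The called genes were a metallothionein and an enzyme of amino acid breakdown. Mt1, a zinc-binding metallothionein, had 398 and 876 FPKM in dabigatran replicates 1 and 2, against 107, 136 and 140 FPKM in diet replicates 0, 1 and 2, and rose by 2.22 ± 0.32 on the log2 scale (SE, limma adjusted p = 0.0404). Sds, which encodes serine dehydratase, had 148 and 157 FPKM with dabigatran, against 58.3, 63.5 and 66.2 FPKM on the diet, and rose by 1.28 ± 0.16 (SE, limma adjusted p = 0.0404). Exons of Sds overlap genes on the opposite strand, and no source used here says whether counting used strand. The same holds for Mt2, Dusp1, Nr3c2, Dnaja1, Dbp, Nr1d1, Arntl, Fkbp8 and Pik3r2, so the levels of these genes are uncertain, and 11.9% of the 50-base windows of Dnaja1 also occur in another gene. Both calls were lost without diet replicate 0, without diet replicate 2 and without dabigatran replicate 2, and the list had 10 calls without diet replicate 1 and 7 without dabigatran replicate 1, where the spread again comes from the diet libraries alone.

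Other genes of that list had separate groups without passing the adjusted threshold. Mt2, the neighbouring metallothionein, had 417 and 808 FPKM with dabigatran, against 108, 225 and 133 FPKM on the diet (adjusted p = 0.0674). Per1, a clock gene with a known glucocorticoid element, had 6.63 and 9.90 FPKM with dabigatran, against 0.444, 2.45 and 0.643 FPKM on the diet (log2 difference 2.55 ± 0.49, adjusted p = 0.0716). Tat, the tyrosine aminotransferase gene and a textbook target of the receptor, had 628 and 857 FPKM with dabigatran, against 110, 352 and 163 FPKM on the diet (log2 difference 1.99 ± 0.43, adjusted p = 0.0869). In all 3 of these genes diet replicate 1 was the highest diet library, and all 3 passed without it.

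Textbook targets differed in how far apart the groups were. Tdo2, which opens tryptophan breakdown, had 1133 and 2018 FPKM with dabigatran, against 763, 1088 and 884 FPKM on the diet (adjusted p = 0.257). Pck1, the gluconeogenic PEPCK gene, had 1145 and 735 FPKM with dabigatran, against 345, 1007 and 309 FPKM on the diet, so the groups overlapped (adjusted p = 0.381). Klf9, a zinc finger factor, averaged 31.9 ± 2.02 FPKM with dabigatran and 27.0 ± 3.97 on the diet (adjusted p = 0.570). Dusp1, a phosphatase of MAP kinases, had 34.2 and 9.43 FPKM with dabigatran, against 9.10, 22.4 and 26.4 FPKM on the diet (adjusted p = 0.981).

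A further 5 genes of the list were chosen after their values were seen, so their shared direction, higher with dabigatran, is no result. They differed in which library was highest. Of the 26 tested genes of the list, 23 had a log2 difference above 0 and 3 below 0. The 3 below, named after their sign was seen, were Anxa1 (-0.74), Pdk4 (-0.32) and Glul (-0.15), with overlapping groups. Got1, an aspartate aminotransferase, and Cps1, which starts the urea cycle, had log2 differences of 2.20 and 1.93, with adjusted p-values of 0.0784 and 0.0738. Ddit4, an inhibitor of mTORC1, had 3.43 and 14.9 FPKM with dabigatran, against 0.702 and 1.11 FPKM in diet replicates 1 and 2 and a listing at 0 in diet replicate 0. Lpin1, a phosphatidate phosphatase, had 3.41 and 81.5 FPKM with dabigatran, against 3.30, 1.74 and 2.28 FPKM on the diet, so dabigatran replicate 1 lay close to the diet range. Igfbp1, an IGF-binding protein, had 211 and 116 FPKM with dabigatran, against 10.5, 105 and 15.6 FPKM on the diet. Diet replicate 1 was the highest diet library in 14 of the 26 tested list genes (53.8%), beside 38.4% of all tested genes.

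**Figure D3:**
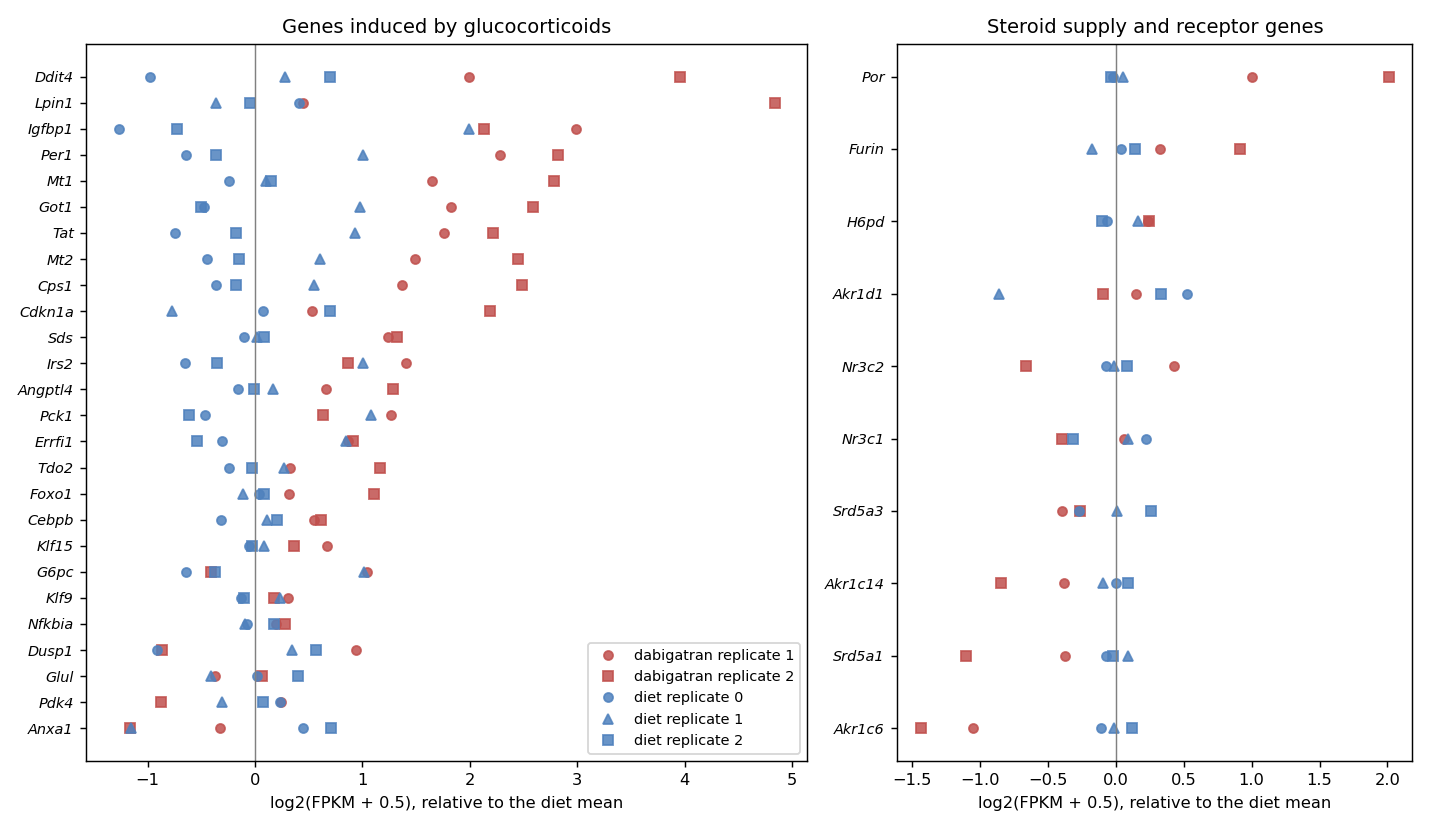
Distance of each library from the diet mean on the log2(FPKM + 0.5) scale for the 26 tested genes of the induced list (left) and the 10 tested genes of steroid supply and receptors (right). Red symbols are dabigatran libraries and blue symbols are diet libraries, with a shape for each replicate. On the left, both red symbols lie to the right of every blue one in 17 of 26 genes, and on the right, Por and Akr1c6 are at opposite ends.

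Close relatives of the response genes were also measured. Of 11 genes related to Tsc22d3, Sgk1 or Fkbp5, all tested, 0 were called by limma. At an unadjusted p under 0.05, 0 were higher and 3 lower, beside 6.87% and 9.13% of all tested genes. The list median was -0.21, with a range of -0.38 to -0.11 over 13 alternatives. Sgk2, a paralog of Sgk1, averaged 13.5 ± 0.702 FPKM with dabigatran (SD, n = 2) and 30.5 ± 5.22 on the diet (SD, n = 3), with a log2 difference of -1.13 and an adjusted p of 0.0674. Tsc22d1, a paralog of Tsc22d3, averaged 34.7 ± 11.1 FPKM with dabigatran and 69.4 ± 16.8 on the diet (adjusted p = 0.141). Fkbp8, a membrane-bound relative of Fkbp5, averaged 54.4 ± 1.51 FPKM with dabigatran and 78.3 ± 16.1 on the diet (adjusted p = 0.283).

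Per1 also belongs to the circadian clock, and the levels of other clock genes stand beside those above. Of 16 other clock genes, 14 were tested and 0 were called by limma. At an unadjusted p under 0.05, 1 was higher and 3 lower, beside 6.87% and 9.13% of all tested genes. The list median was -0.23 and ranged from -0.37 to -0.07 over 13 alternatives. Dbp, a clock output factor, had 1.25 and 1.74 FPKM with dabigatran, against 12.1, 4.59 and 10.0 FPKM on the diet (log2 difference -2.14, adjusted p = 0.0674). Arntl, which encodes the core activator BMAL1, had 9.03 and 9.12 FPKM with dabigatran, against 4.38, 5.18 and 4.53 FPKM on the diet (log2 difference 0.88, adjusted p = 0.108). Nr1d1 and Per3, a repressor and a period gene, had log2 differences of -0.64 and -1.01, with adjusted p-values of 0.212 and 0.236. The part of the hour of collection in these levels, and in those of the corticosteroid genes, was not tested.

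Lcn2 (chr2:32384633-32388252, minus strand) encodes lipocalin 2, an iron-siderophore binding protein made by hepatocytes in the acute phase and stored in neutrophils. It had 167 and 9.52 FPKM in dabigatran replicates 1 and 2, against 21.5, 67.7 and 24.7 FPKM in diet replicates 0, 1 and 2. The dabigatran group held both the highest and the lowest library, 17.6-fold apart, and all diet libraries lay between them. The log2 difference of 0.29 ± 1.02 (SE) turned to -1.74 without dabigatran replicate 1 and was 2.32 without dabigatran replicate 2. The fragments were in the ratio of 234 and 12 in dabigatran libraries to 35, 84 and 39 in diet libraries.

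Acute phase genes chosen after their values were seen spread in a like way. Saa1, a serum amyloid gene, had 6141 and 116 FPKM with dabigatran, against 187, 2940 and 227 FPKM on the diet. Saa2 had 4278 and 31.9 FPKM with dabigatran, against 112, 2362 and 144 FPKM on the diet, but 31.5% of the 50-base windows of Saa1 and 30.0% of those of Saa2 also occur in another gene, so reads may be split between them. Orm2, an orosomucoid gene that shares 22.7% of its windows, had 223 and 7.24 FPKM with dabigatran, against 29.4, 56.0 and 51.3 FPKM on the diet. Saa3 had 37.2 and 4.77 FPKM with dabigatran, against 8.60, 173 and 8.89 FPKM on the diet, and was the one of these with its highest level in diet replicate 1.

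Of the 19 acute phase genes, all tested, 0 were called by limma. At an unadjusted p under 0.05, 6 were higher and 0 lower, beside 6.87% and 9.13% of all tested genes. The median was 0.31, and it was 0.01 without dabigatran replicate 1 and 0.64 without dabigatran replicate 2. The genes with the lowest p lay above the diet range in both dabigatran libraries. Itih3, an inter-alpha-trypsin inhibitor heavy chain, averaged 531 ± 43.0 FPKM with dabigatran and 209 ± 50.3 on the diet (adjusted p = 0.0560), and Serpina3n, a serine protease inhibitor, averaged 481 ± 60.3 with dabigatran and 199 ± 73.6 on the diet (adjusted p = 0.0863). The fibrinogen genes Fga and Fgb had log2 differences of 0.75 and 0.86, with adjusted p-values of 0.145 and 0.163. Diet replicate 1 was the highest diet library in 16 of the 19 (84.2%), beside 38.4% of all tested genes.

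The summed level of neutrophil markers was higher in the dabigatran library with more Lcn2, while in the diet group it was highest in replicate 2 and Lcn2 in replicate 1. The 9 of 10 listed markers found summed to 48.0 and 2.90 FPKM in dabigatran replicates 1 and 2, against 5.14, 2.89 and 23.3 FPKM in diet replicates 0, 1 and 2. Most of the 48.0 FPKM was S100a9 (28.1) and S100a8 (12.6), whose fragments there may number as few as 17 and 5. The sums may therefore rest on few fragments. In dabigatran replicate 1, the highest Lcn2 library, 1 marker was at 0, and in diet replicate 1, the next highest, 5 were. Elane, a neutrophil elastase that cleaves corticosteroid-binding globulin, was 1.30 FPKM in dabigatran replicate 1 and listed at 0 in the other 4 libraries. Elane did not pass the filter on low values, and its level may rest on as little as 1 fragment. The part of neutrophils in the Lcn2 levels was not tested.

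**Figure D4:**
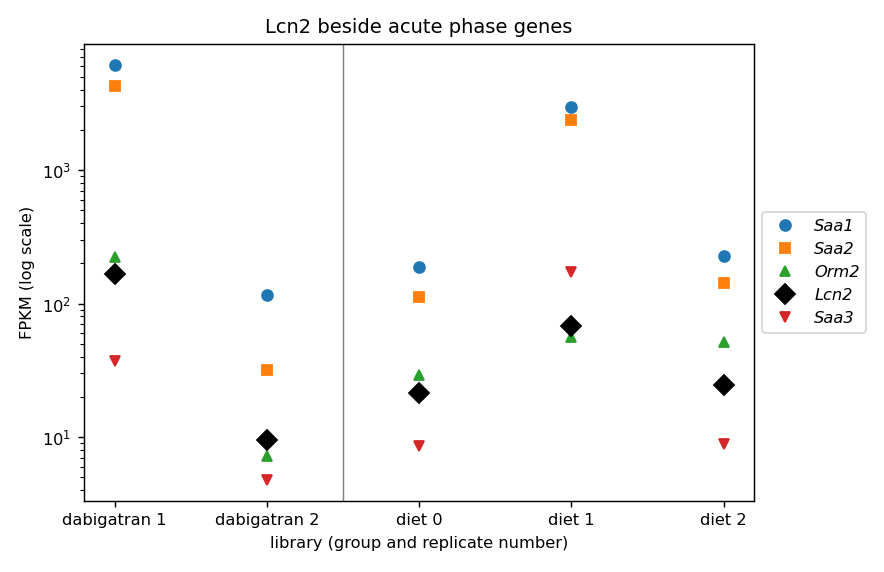
Levels in FPKM, on a log axis, of Lcn2 and 4 acute phase genes in each library, with dabigatran libraries left of the line and diet libraries right of it. Lcn2, Saa1, Saa2 and Orm2 are highest in dabigatran replicate 1 and lowest in dabigatran replicate 2.

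The remaining marker lists give the levels of other cell types. Adipocyte markers summed to 10.7 and 10.6 FPKM with dabigatran, against 163, 40.5 and 61.5 FPKM on the diet, with Lep and Plin1 at 0 in every library and Cfd holding most of the diet sum. Kupffer cell markers summed to 264 and 174 FPKM with dabigatran and to 187 to 246 on the diet. Endothelial markers summed to 118 and 115 with dabigatran and to 124 to 128 on the diet, which joins opposite moves. Of the 8 endothelial markers, 5 lay higher and 2 lower with no overlap of the groups, beside 17.2% of all tested genes each way. Lyve1 had 18.6 and 23.2 FPKM with dabigatran, against 10.4, 9.07 and 7.31 on the diet. Clec4g had 37.2 and 25.4, against 50.4, 53.6 and 53.3. Stellate cell markers summed to 96.1 and 101 with dabigatran and 96.9 to 142 on the diet, mostly Dcn in every library. Of 7 tested, 1 lay higher and 2 lower with no overlap, the latter including Col3a1 (1.29 and 0.953 FPKM, against 6.26, 3.48 and 6.32). Lymphocyte markers summed to 10.8 and 3.76 FPKM with dabigatran and to 8.69 to 9.41 on the diet, with Ptprc the highest in every library. Cholangiocyte markers summed to 39.0 and 11.1 with dabigatran and to 32.8 to 52.0 on the diet. Spp1 held most of the cholangiocyte sum, with 35.3 and 9.54 FPKM with dabigatran, against 49.4, 31.2 and 39.0 on the diet. Skeletal muscle markers reached at most 0.520 FPKM, in diet replicate 1, and were at 0 with dabigatran. Their part in the levels of the 8 genes was not tested.

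The genes most like Serpina6 over the 5 libraries were found from profiles of log2(FPKM + 0.5) centred on the diet mean, by the smallest root mean square difference. Ces1f, a carboxylesterase, was nearest at 0.0622, with 39.9 and 20.7 FPKM with dabigatran, against 172, 105 and 177 FPKM on the diet. Osbpl3 (0.175), Clstn3 (0.239), Klhdc7a (0.239) and Inmt (0.259) followed. The genes most like Fkbp5 were less close: Scara5, a ferritin receptor, at 0.312, Tfrc, the transferrin receptor, at 0.402, then Ddit4 (0.511), Acmsd (0.562) and Cyp2c40 (0.565). Scara5 had 2.95 and 20.2 FPKM with dabigatran, against 0.880, 1.16 and 0.796 FPKM on the diet, so dabigatran replicate 2 was highest for it as for Fkbp5.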

How the data were processed

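Each table holds 1 FPKM value for each of 23291 gene symbols, a unit that the authors give per the file headers. The submitters' processing notes name, without saying what each did, the tools CASAVA, Cuffdiff, TopHat, TopHat2 2.0.4 and R 2.15.1 and the builds GRCm38 and mm10. No source used here says how strand or multiply matching reads were handled. FPKM depends on a library's total, of which the 10 most abundant genes held 20.7% to 24.5%. Depth was read from the spacing of values under 0.3 FPKM. Fragments are quoted as the lowest whole numbers that keep the ratio of the values (tolerance 0.02), so true numbers can be a multiple, and they cover counting error only.

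Genes that reached 1 FPKM in 3 or more of 5 distinct libraries were fitted on log2(FPKM + 0.5) with limma 3.58.1 in R 4.3.3 (lmFit, eBayes with trend, group as the sole term), two-sided, with Benjamini-Hochberg adjustment over 10247 genes and a threshold of 0.05. The steps were tested on simulated data. No count test was run. Coordinates are from GENCODE M21 (GRCm38).

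The 8 genes, the 8 gene lists and 9 marker lists were chosen with earlier results of these data known. Named genes are the 8, those called in each list, the 4 with the lowest unadjusted p in each, and 11 fixed genes (Nr3c1, Nr3c2, H6pd, Hsd11b2, Akr1d1, Tat, Per1, Klf9, Dusp1, Tdo2 and Pck1). Others are said to be chosen after their values were seen, and single marker genes were named in that way too. A gene named by this rule is not reported here. Alternatives were other pseudocounts, filters, scalings, no variance trend, a replicate block and leaving out each library.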

Additional observations from a re-analysis of the deposited data

How the results depend on the processing

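Against 13 genes called higher and 31 lower, limma called 6 and 17 with a pseudocount of 0.1, 8 and 27 with a filter at 5 FPKM, 11 and 16 after quantile normalization, and 0 and 0 both with no filter (816 and 1117 at an unadjusted p under 0.05) and with no variance trend (692 and 870). Leaving out 1 library gave 0 to 95 higher and 0 to 199 lower. Against 1 steroid supply gene called lower, 0 were called with a pseudocount of 0.1, no filter, quantile normalization or no trend, and 0 to 1 lower and 0 to 1 higher when a library was left out. Against 2 induced genes called higher, 1 was called with a pseudocount of 0.1, 0 with no filter or no trend, and 0 to 10 when a library was left out. The cause was not tested. Libraries with the same replicate number showed no shared deviation from their group means (correlations of -0.04 and -0.03). With 2 dabigatran libraries these deviations mirror each other, so the check cannot settle whether the numbers pair the samples. With the replicate block, which leaves diet replicate 0 without a partner, 5 genes were higher and 8 lower, with 0 calls in both lists, Dusp1 was at -0.42 and Saa2 at -0.65. Serpina6, Hsd11b1, Fkbp5, Tsc22d3, Sgk1 and Zbtb16 kept their sign in every alternative they were fitted in. Zbtb16 could not be fitted at 5 FPKM. Filters and the variance trend leave a gene's difference unchanged, and the replicate block gave the differences found without diet replicate 0. In Serpina6, Hsd11b1, Fkbp5 and Tsc22d3 the groups did not overlap, so leaving out a library could not turn the sign. Kept signs are therefore no test of those genes. Serpina6 ranged from -2.87 to -1.78. Lcn2 changed sign with the replicate block (-0.02), without diet replicate 0 and without dabigatran replicate 1. Log2 differences whose sign turned when a library was left out ranged from -0.39 to 0.063 for Nr3c1, -0.66 to 0.43 for Nr3c2, -0.40 to 0.29 for Akr1d1, -0.87 to 0.94 for Dusp1, -2.11 to 3.62 for Saa1, -3.38 to 3.66 for Saa2, -2.22 to 0.62 for Saa3 and -2.52 to 2.33 for Orm2.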

Other observations

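Genes that make corticosteroids in the adrenal gland were looked for as well. Cyp11a1, Hsd3b1, Cyp11b1 and Cyp11b2 were listed at 0 in every library, and Star, which moves cholesterol into mitochondria, had 0.848 and 0.672 FPKM with dabigatran, against 0.623, 0.818 and 0.644 FPKM on the diet. Cyp21a1, steroid 21-hydroxylase, had 2.68 FPKM in dabigatran replicate 1 and was listed at 0 in dabigatran replicate 2, against 5.75, 2.42 and 4.28 FPKM in diet replicates 0, 1 and 2 (limma adjusted p = 0.269). Of its 50-base windows, 21.3% also occur in another gene, and its exons overlap a gene on the opposite strand, so its level is uncertain.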
